A study of Sus scrofa with 63 samples.

Results

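The genes described here encode the proteins of the complement cascade, the clotting cascade with its inhibitors, the inter-alpha-trypsin inhibitor heavy chains, several plasma carriers and the serpin family. They were chosen by a rule on their gene symbols, with earlier results of these data known. Each gene is represented by the probe-set with the highest mean over all arrays. This gave 48 of 6765 genes with a single symbol. These 48 genes have 66 of the 23935 probe-sets that are not controls, and 13 of them have more than 1 probe-set.

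Liver RNA of German Landrace pigs was hybridised to 63 porcine arrays, with 16 animals at 94 days post conception (dpc), 16 at 1 day post natum (dpn), 15 at 28 dpn and 16 at 188 dpn. The dams of all animals were gilts on a high protein diet (HP) during gestation, so no group here is a control for the diet, and the stages differ only in the age of the offspring and in what the study's methods tie to it. The fetuses came from an experiment of their own, the animals were sib pairs, and the pairs of the early stages joined a light and a heavy littermate. Newborns were killed by injection, whereas pigs at 28 dpn and 188 dpn had fasted overnight and were stunned and bled, so age cannot be told apart from these conditions. In the study's methods the piglets born to a sow were divided among the postnatal ages, so animals of different postnatal stages may also be littermates. The labels give neither litter, sex nor weight, so the fits treat littermates as independent animals, within and between stages.

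Complement is a chain of plasma proteases and binding proteins that marks and lyses microbes. It is started by antibody through C1, by sugars through mannose-binding lectin, or by the slow turnover of C3, and it ends in a pore formed by C5 to C9. Clotting runs through a second chain of proteases that ends in fibrin, and protein C, protein S and several serpins hold it in check. Serpins are protease inhibitors that trap their target by a change of shape, although some family members carry hormones instead. The hepatocyte is the main source of nearly all of these plasma proteins.

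The deposited values are log2 signals, and all changes below are differences of stage means on this scale with their standard error (SE). A level is compared only within a probe-set. Consecutive stages bound 3 periods: period I ends at 1 dpn, period II lasts until 28 dpn and period III until 188 dpn. The whole span sets 188 dpn directly against 94 dpc and so shares its arrays with periods I and III, and consecutive periods share the arrays of the stage between them. A change was called at an adjusted p under 0.05 from limma, with Benjamini-Hochberg adjustment over all tested probe-sets. The test was run on probe-sets whose signal exceeded the array median in at least 50% of the animals at 1 or both of the stages compared. The median change of all tested probe-sets was -0.10 in period I, -0.14 in period II, -0.07 in period III and -0.37 over the whole span, and the medians of gene groups are given relative to it.

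Hepatocyte markers were high at all 4 stages, with a median log2 sum of 18.76, 18.55, 18.23 and 18.32 in the order of age. They were not constant. Of 9 such genes 3 were called lower and 1 higher in period I, against 34.0% and 22.9% of all tested probe-sets. In period II 5 were lower and 1 higher, against 42.9% and 28.8%. In period III 1 was higher and 0 lower, against 12.3% and 22.5%, and over the whole span 7 were lower and 2 higher, against 53.1% and 27.0%. Their median change over the whole span was -0.374, close to the -0.369 of all tested probe-sets. Markers of other cells were also measured and their signals changed. The summed level of 6 red cell precursor genes dropped from a median of 14.46 at 94 dpc to 11.16 at 1 dpn. There all 6 were called lower, against 34.0% of all tested probe-sets. At least KLF1 and TFRC were tested through their signal at 94 dpc alone, so the choice of tested probe-sets favoured a decrease for them. The summed level of 9 macrophage genes had a median of 14.53 at 1 dpn, 15.74 at 28 dpn and 15.07 at 188 dpn. Of these 6 were called higher in period II and all 9 lower in period III, against 28.8% and 22.5% of all tested probe-sets. In whole liver, fewer cells of a type and less RNA per cell cannot be told apart, and the part of these cells in the changes below was not tested. For the spiked control RNAs the 3′ minus 5′ signal, a sign of how far labelling reached, was 0.23 to 0.46 at 94 dpc and 1.00 to 1.25 at 1 dpn, so period I cannot be told apart from this difference. With that quantity as a covariate none of the 48 genes and 2 of 12839 probe-sets were called in period I by limma, against 5 genes and 936 probe-sets at an unadjusted p under 0.05. At 188 dpn the spiked controls gave 0.66 to 1.72, so the whole span cannot be told apart from this difference either. With the covariate 34 of the 39 calls over the whole span were kept, and C3, FGG, KNG1, PROC and SERPINA6 were lost. Array 6 at 94 dpc stood apart with an actin 3′ to 5′ difference of 4.30. Without this array 34 of the 35 calls among the 48 genes in period I were kept, and C4BPA was lost. Newborn array 7 stood apart in the same way, at 3.16 against at most 1.93 in the other newborns, and without it all 35 calls of period I and all 34 of period II that were still tested were kept. The actin difference was 3.15 to 4.02 at 28 dpn and 3.39 to 4.88 at 188 dpn, against medians of 1.57 at 1 dpn and 2.25 at 94 dpc. Changes in period II and over the whole span therefore cannot be told apart from it, and no fit used it as a covariate. A part of the genes lies near the top of the scale, since 9 of the 48 have a mean above 15, as 0.372% of all probe-sets do, while the highest signal of an array was 15.40 to 16.61.

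In period I 44 of the 48 genes were tested, and 17 rose, 18 fell and 9 did not pass. Of all tested probe-sets 56.9% were called in this period, 22.9% higher and 34.0% lower. Quantile normalization gave 22 higher and 14 lower. The arrays of the 2 stages did not overlap for 8 of the genes, of which HPX was higher and 7 were lower, against 5.05% of all probe-sets. In period II 45 genes were tested, and 28 rose, 7 fell and 10 did not pass, where 71.7% of all probe-sets were called, 28.8% higher and 42.9% lower. Arrays did not overlap for 12 genes, 11 of them higher, against 11.7% of all probe-sets. The counts include 2 genes in period I (MBL2 and SERPINB7) that passed the filter through 1 stage alone. In period II they include 3 such genes (SERPINB7, SERPINE2 and SERPINI1).

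Period III was quieter. Among 43 tested genes 5 rose, 2 fell and 36 did not pass, where 34.7% of all probe-sets were called, 12.3% higher and 22.5% lower. This split depended on the scaling, with 3 higher and 7 lower after quantile normalization and 16 higher and 2 lower after centring each array on its median. SERPINH1 alone had arrays that did not overlap, against 1.26% of all probe-sets. Over the whole span 25 of 44 tested genes were higher and 14 lower at 188 dpn, or 28 and 6 after centring, where 80.1% of all probe-sets were called, 27.0% higher and 53.1% lower. Arrays of 94 dpc and 188 dpn did not overlap for 16 genes, 13 of them higher, against 23.9% of all probe-sets. The 44 genes include 3 (MBL2, SERPINE2 and SERPINI1) that passed the filter through 1 stage alone. MBL2 is counted as higher, SERPINI1 as lower and not overlapping, and SERPINE2 did not pass. F8, SERPINB2 and SERPINB11 were too low to be tested in any period. SERPINE2 was not tested in period I, and SERPINB7 and SERPINI1 were not tested in period III.

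**Figure D1:**
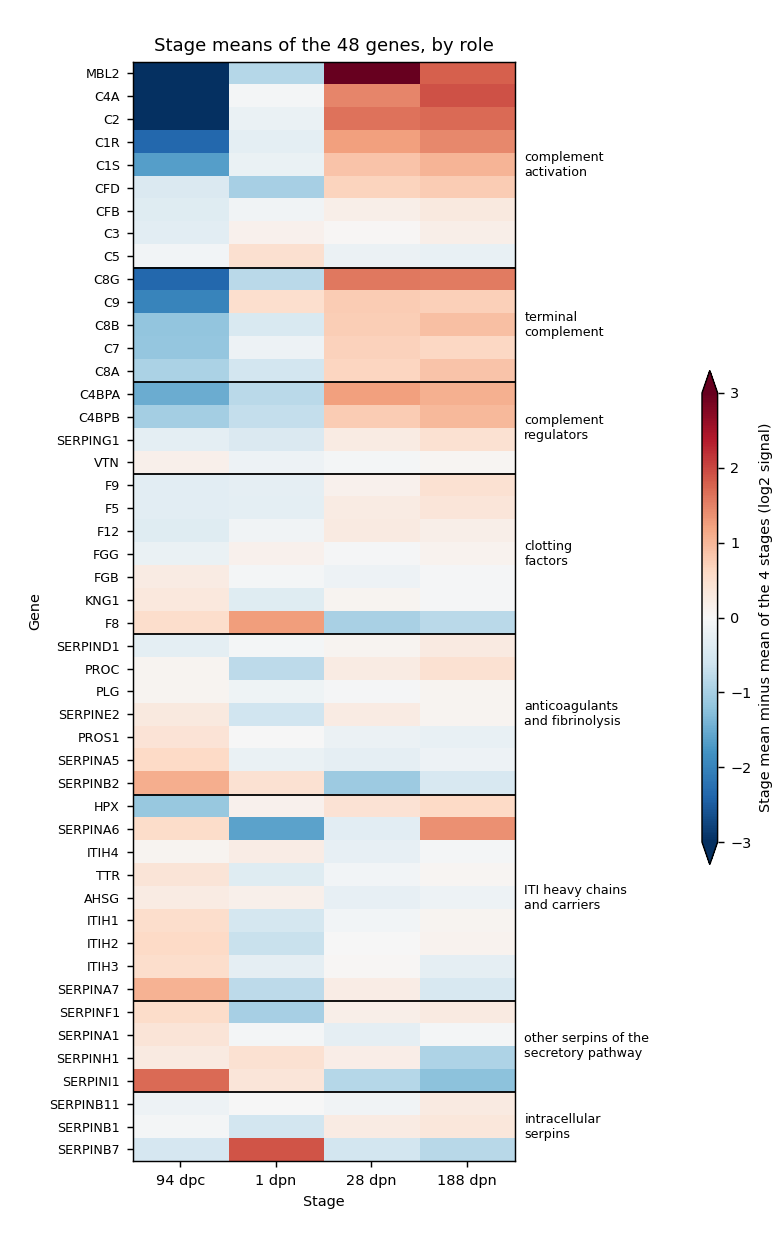
Each row is 1 of the 48 genes and each column a stage, and colour gives the stage mean minus the mean of the 4 stages in log2 signal, with red higher and blue lower and the scale cut off at -3 and 3. Complement activation and terminal complement genes are blue at 94 dpc and red at 28 dpn and 188 dpn for all but C5 and C3, whereas the clotting factors other than F8 stay pale.

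By course over the 3 periods, the most frequent pattern was a rise in periods I and II with no call in period III, found for 11 genes: C1R, C1S, C2, C4BPA, C7, C8B, C8G, CFB, F12, HPX and MBL2. A fall in period I followed by a rise in period II and no later call was found for 8 genes: CFD, ITIH1, ITIH2, KNG1, PROC, SERPINB1, SERPINF1 and TTR. FGB, ITIH3, PLG, PROS1, SERPINA5 and VTN fell in period I and passed in neither later period. C4A was the only gene that rose in all 3 periods. Of the 48 stage means 19 were highest at 188 dpn and 17 at 94 dpc, and 21 were lowest at 94 dpc and 14 at 1 dpn.

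Most of the 9 complement activation genes rose from the fetal to the newborn stage. In period I CFD fell and the other 8 rose, with a median change of 1.55 relative to all tested probe-sets, and MBL2 is 1 of these 8 although the filter let it in only through the stage where it is high. In period II 7 of 9 rose, C5 fell and C3 did not pass, with a relative median of 1.67, and in period III C4A alone rose. Apart from MBL2, the largest increases of this group in period I were those of C4A, C2 and C1R, which belong to the classical route.

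C4A encodes the protein that C1s cleaves to carry the cascade forward. Its signal ranged from 8.68 to 12.09 at 94 dpc with a median of 9.48, from 11.83 to 13.74 at 1 dpn with a median of 13.08, from 14.08 to 14.84 at 28 dpn with a median of 14.50, and from 14.64 to 15.46 at 188 dpn with a median of 14.91. A single fetal array, array 13 at 12.09, lay within the range of the newborns, and from 1 dpn to 28 dpn the arrays were apart. C4A rose by 3.25 ± 0.23 in period I (adjusted p = 8.1e-14), by 1.53 ± 0.13 in period II (adjusted p = 4.8e-12) and by 0.45 ± 0.08 in period III (adjusted p = 9.15e-05). The whole span came to 5.23 ± 0.21 (adjusted p = 4.15e-21), a 37.5-fold difference.

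C2 is the protease that joins C4 in the convertase that cleaves C3. The lowest, median and highest signals were 4.85, 7.48 and 8.54 at 94 dpc, 8.31, 10.20 and 11.19 at 1 dpn, 11.24, 12.07 and 12.60 at 28 dpn and 11.56, 12.16 and 12.36 at 188 dpn. Fetal and newborn arrays overlapped only at their ends, and newborns and piglets at 28 dpn did not overlap. C2 was above background on 13 of 16 fetal arrays and on every later one. The increase was 2.93 ± 0.29 in period I (adjusted p = 2.78e-10) and 1.81 ± 0.19 in period II (adjusted p = 6.45e-10), with 0.07 ± 0.11 in period III (adjusted p = 0.69).

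MBL2 encodes mannose-binding lectin, which starts the lectin route on microbial sugars. Its signal exceeded background in 3 of 16 fetuses, ranging over all 16 from 2.34 to 6.76 with a median of 5.42, and on 15 of 16 arrays at 1 dpn, where it ranged from 5.54 to 9.64 with a median of 7.91. At 28 dpn it ranged from 10.14 to 13.19 with a median of 11.36, above every newborn. The MBL2 signal changed by 3.18 ± 0.45 in period I (adjusted p = 3.21e-07) and rose by 3.96 ± 0.38 in period II (adjusted p = 8.68e-11), the largest increase of the 48 genes in that period. It was tested in period I only through its level at 1 dpn and lay at background in most fetuses, so the filter favoured an increase and neither the size nor the p of period I is support for one. At 188 dpn the arrays ranged from 5.34 to 13.46 with a median of 10.53, and the change in period III was -1.30 ± 0.56 (adjusted p = 0.071).

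The MBL2 signal differed widely between animals of the same age. At 28 dpn 8 arrays lay between 10.14 and 11.36 and the other 7 between 12.70 and 13.19, with no value in between. At 188 dpn the SD was 2.06, above that of 99.97% of the probe-sets with a signal over background on all arrays of that stage, and array 6 at 5.34 was 3.86 below the next one. Among the probe-sets over background on all arrays, the median SD was 0.23 at 28 dpn and 0.26 at 188 dpn for 43 of the 48 genes, and 0.31 and 0.35 for all.

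C1R and C1S encode the proteases of the C1 complex and are neighbours in the genome. C1R signals had a lowest, median and highest value of 10.22, 11.62 and 12.69 at 94 dpc, 11.67, 13.68 and 14.10 at 1 dpn and 14.79, 15.12 and 15.58 at 28 dpn. Newborn array 11, at 11.67, was 1.29 below the next newborn and also had the lowest C1S (11.82), C2 (8.31) and C4A (11.83) of its stage. Without this array all 35 calls of period I were kept, and 34 of 35 in period II, where TTR was lost. C1R rose by 2.07 ± 0.25 and 1.52 ± 0.17 in periods I and II (adjusted p = 2.14e-08 and 1.66e-09), and C1S by 1.45 ± 0.25 and 1.05 ± 0.19 (adjusted p = 9.29e-06 and 7.48e-06). From 94 dpc to 188 dpn C1R was higher by 3.79 ± 0.21 and C1S by 2.68 ± 0.19 (adjusted p = 4.94e-17 and 2.51e-14), and neither gene passed in period III.

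C5, whose cleavage opens the terminal route, took a different course. It had a lowest, median and highest signal of 12.03, 12.69 and 13.44 at 94 dpc, 12.03, 13.38 and 14.31 at 1 dpn and 11.82, 12.58 and 13.38 at 28 dpn, so the newborns were shifted up within overlapping ranges. C5 rose by 0.55 ± 0.16 in period I (adjusted p = 0.00492) and fell by 0.65 ± 0.18 in period II (adjusted p = 0.00175). C3, the central component, was near the top of the scale at every stage, with medians of 15.03, 15.41, 15.31 and 15.49, and rose by 0.45 ± 0.10 in period I (adjusted p = 2.05e-04). CFB, the protease of the alternative route, rose by 0.27 ± 0.07 and 0.29 ± 0.09 in periods I and II (adjusted p = 0.00201 and 0.0030).

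CFD, factor D, which activates factor B, was the 1 member of this group that was lower at 1 dpn than at 94 dpc. Its signals had a lowest, median and highest value of 9.60, 10.19 and 10.58 at 94 dpc, 8.85, 9.63 and 10.65 at 1 dpn and 10.45, 11.34 and 11.97 at 28 dpn. CFD fell by 0.56 ± 0.14 in period I (adjusted p = 8.9e-04) and rose by 1.66 ± 0.15 in period II (adjusted p = 4.74e-11). A single newborn, at 10.65, reached into the range of the piglets at 28 dpn.

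**Figure D2:**
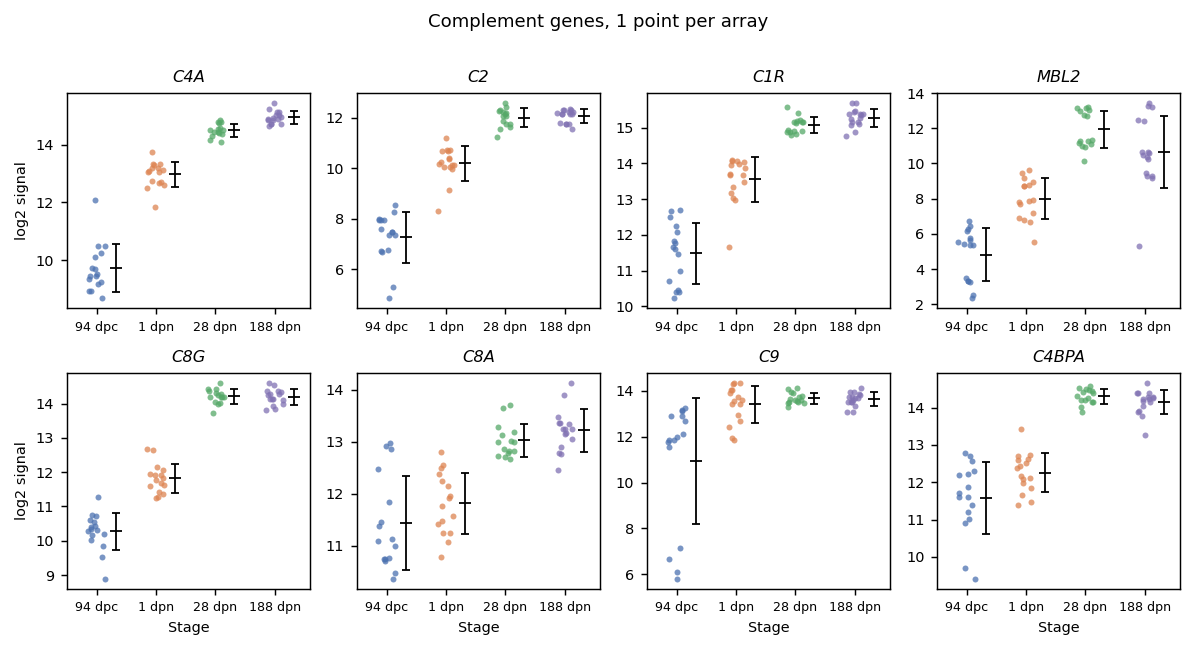
Each panel gives 1 complement gene, each point 1 array (log2 signal on the y axis, stage on the x axis), and the bar beside the points the mean ± SD of the stage. C2, C1R, C8G and C4BPA climb to 28 dpn with no call after it, C4A rises again to 188 dpn, MBL2 lies in 2 sets of arrays at 28 dpn and has 1 array far below the others at 188 dpn, and C9 has 4 fetal arrays between 5.81 and 7.15.

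The 5 terminal complement genes, which encode parts of the pore, all reached higher levels after birth. In period I 4 of 5 rose, with a relative median of 1.10, and C8A did not pass. In period II 4 of 5 rose, with a relative median of 1.33, and C9 did not pass, and in period III none of the 5 passed, with adjusted p between 0.12 and 0.89.

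C8G encodes the gamma chain of C8, a lipocalin that is bound to the alpha chain. It had a lowest, median and highest signal of 8.89, 10.32 and 11.28 at 94 dpc, 11.26, 11.81 and 12.67 at 1 dpn, 13.73, 14.20 and 14.60 at 28 dpn and 13.80, 14.19 and 14.60 at 188 dpn. The 2 early stages overlapped only at their ends, and newborns and piglets at 28 dpn did not overlap. C8G rose by 1.55 ± 0.17 in period I (adjusted p = 1.76e-09) and by 2.39 ± 0.12 in period II (adjusted p = 3.57e-17). The other probe-set of C8G rose by 1.35 and 2.72.

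C8A and C8B, the chains that bind to the membrane-inserting complex, are genomic neighbours. C8B rose by 0.73 ± 0.14 and 1.18 ± 0.13 in periods I and II (adjusted p = 2.99e-05 and 7.9e-10), while C8A changed by 0.38 ± 0.26 (adjusted p = 0.21) and then rose by 1.21 ± 0.17 (adjusted p = 1.49e-07). C8A signals of the fetuses were spread from 10.36 to 12.98 with a median of 11.11, and the highest of them exceeded every newborn. C7 rose by 1.00 ± 0.15 in period I and by 0.86 ± 0.14 in period II (adjusted p = 1.42e-06 and 1.8e-06), but its other probe-set rose by 1.83 and then fell by 0.96, so the course of C7 after birth depends on the probe-set.

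C9 forms the wall of the pore. At 94 dpc arrays 1, 11, 12 and 15 had C9 signals of 6.65, 7.15, 5.81 and 6.10, whereas the other 12 arrays lay between 11.57 and 13.25, so 4.43 separated the highest of the low arrays from the lowest of the others. All newborns lay between 11.87 and 14.35 with a median of 13.58. C9 rose by 2.48 ± 0.68 in period I (adjusted p = 0.00229). The 12 fetal arrays outside the low group had a median of 12.42, compared with 13.58 in the newborns. The other C9 probe-set was low throughout and above background on none of these 4 arrays and on 7 of the other 12. Among all probe-sets above background on at least 50% of the 94 dpc arrays, 4.55% had a gap of at least 1 with at least 2 arrays on each side, and among the 48 genes C2, C4BPA and SERPINB7 had one as well, each with 2 low arrays.

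Of the 4 complement regulators all but VTN rose, mainly after birth. In period I 1 rose and 1 fell, in period II 3 rose with a relative group median of 1.23, and in period III 2 rose. C4BPA and C4BPB, the chains of the C4b-binding protein that limits the C3 convertase and carries protein S, moved most. C4BPA had a lowest, median and highest signal of 9.42, 11.67 and 12.77 at 94 dpc, 11.39, 12.28 and 13.44 at 1 dpn, 13.88, 14.32 and 14.57 at 28 dpn and 13.27, 14.24 and 14.66 at 188 dpn. Fetal and newborn arrays overlapped broadly, and newborns and piglets at 28 dpn were apart.

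C4BPA rose by 0.68 ± 0.26 in period I (adjusted p = 0.0283), a call that was lost without a filter, after quantile normalization (adjusted p = 0.057), with array weights, without fetal array 6 (adjusted p = 0.0503), with the 3′ to 5′ covariate and in the Wilcoxon test, and by 2.04 ± 0.14 in period II (adjusted p = 9.63e-14). C4BPB changed by 0.30 ± 0.15 in period I (adjusted p = 0.087), rose by 1.49 ± 0.15 in period II (adjusted p = 1.96e-10) and rose by 0.20 ± 0.08 in period III (adjusted p = 0.0383). SERPING1, the C1 inhibitor, rose by 0.68 ± 0.09 in period II (adjusted p = 5.62e-08) and by 0.21 ± 0.08 in period III (adjusted p = 0.0431). Both calls of period III were lost after quantile normalization, where C4BPB changed by 0.06 and SERPING1 by 0.05. VTN, vitronectin, which blocks insertion of the pore, fell by 0.31 ± 0.09 in period I (adjusted p = 0.00627), but was higher by 0.14 after quantile normalization.

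Of the 7 clotting factors 6 were tested. In period I FGG and F12 rose and FGB and KNG1 fell, in period II 4 rose and FGG fell, and in period III F9 alone rose. The largest called change was that of KNG1 in period I. The relative group medians of the tested members were 0.13, 0.53 and 0.19 in the 3 periods.

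FGB and FGG encode the beta and gamma chains of fibrinogen and lie close together in the genome. FGG had a lowest, median and highest signal of 14.89, 15.21 and 15.44 at 94 dpc and of 15.22, 15.48 and 15.82 at 1 dpn, and FGB of 15.36, 15.64 and 15.96 and of 15.02, 15.31 and 15.73, so the 2 chains shifted in opposite directions within overlapping ranges. FGG rose by 0.33 ± 0.07 in period I (adjusted p = 1.88e-04) and FGB fell by 0.30 ± 0.08 (adjusted p = 0.00124), but FGB was higher by 0.19 after quantile normalization (adjusted p = 0.00273). The other FGG probe-set, with a lower signal, rose by 2.04 ± 0.16 in period I (adjusted p = 2.29e-12), and the mean of both rose by 1.19, so the size of the FGG increase depends on the probe-set. FGG then fell by 0.18 ± 0.08 in period II (adjusted p = 0.0345), which turned to 0.04 after centring on the median.

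KNG1 encodes kininogen, the carrier of prekallikrein and factor XI and the source of bradykinin. It had a lowest, median and highest signal of 13.28, 14.04 and 14.42 at 94 dpc, 12.72, 13.31 and 14.02 at 1 dpn and 13.39, 13.79 and 14.06 at 28 dpn, lowest at 1 dpn with overlapping ranges. KNG1 fell by 0.69 ± 0.13 in period I (adjusted p = 2.33e-05) and rose by 0.46 ± 0.12 in period II (adjusted p = 0.00105). After quantile normalization the KNG1 change in period II was 0.15 (adjusted p = 0.27). All 4 KNG1 probe-sets fell in period I, but in period II 2 rose and 1 fell.

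F12, the factor that starts the contact route, rose by 0.27 ± 0.09 in period I (adjusted p = 0.0163), or by 0.17 without a call after quantile normalization (adjusted p = 0.12). Its rise of 0.38 in period II (adjusted p = 0.00155) became 0.08 after quantile normalization (adjusted p = 0.52). Over the whole span quantile normalization left 0.07 (adjusted p = 0.29), so the F12 calls depend on the scaling. F5, the cofactor of factor Xa, had medians of 12.02 at 1 dpn and 12.46 at 28 dpn and rose by 0.52 ± 0.10 in period II (adjusted p = 2.72e-05). F9, factor IX, which is missing in haemophilia B, rose by 0.40 ± 0.08 in period II (adjusted p = 2.41e-05) and by 0.33 ± 0.07 in period III (adjusted p = 2.59e-04). All 3 F9 probe-sets rose in period III, whereas in period II one of the others fell by 1.73. F8 had the widest range of stage means of the group but was above background on only 3, 8, 1 and 1 arrays of the 4 stages, with medians of 5.62, 5.69, 3.44 and 3.78, and was not tested.

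Of the 7 genes of anticoagulation and fibrinolysis, most of those tested fell in period I. In that period 4 of 5 tested members fell and none rose, with a relative median of -0.32, in period II 2 of 6 rose, and in period III none of 6 passed. PROC encodes protein C, which inactivates factors Va and VIIIa. Its lowest, median and highest signals were 14.21, 14.59 and 14.83 at 94 dpc, 13.37, 13.64 and 14.03 at 1 dpn, 14.32, 14.77 and 15.14 at 28 dpn and 14.49, 14.91 and 15.27 at 188 dpn.

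Newborn PROC signals were therefore below those of every fetus and every piglet at 28 dpn. PROC fell by 0.88 ± 0.08 in period I (adjusted p = 1.24e-11) and rose by 1.03 ± 0.09 in period II (adjusted p = 3.4e-12). SERPINA5, the protein C inhibitor, fell by 0.79 ± 0.08 in period I (adjusted p = 1.12e-09), from a median of 15.42 to 14.65, with medians of 14.57 and 14.70 at 28 dpn and 188 dpn and no call in the later periods. Quantile normalization left a fall of 0.26 in period I (adjusted p = 0.00842). The other SERPINA5 probe-set fell by 0.48 in period II (adjusted p = 1.82e-04) and rose by 0.39 in period III (adjusted p = 0.00498), so its later course depends on the probe-set. PROS1, protein S, the cofactor of protein C, fell by 0.42 ± 0.10 (adjusted p = 6.67e-04). PLG, the precursor of plasmin, fell by 0.20 ± 0.07 (adjusted p = 0.0171) but was higher by 0.33 after quantile normalization.

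SERPIND1, heparin cofactor II, passed in none of the 3 periods, with changes of 0.22 ± 0.10, 0.16 ± 0.11 and 0.17 ± 0.09, yet was higher by 0.55 ± 0.08 over the whole span (adjusted p = 2.28e-07). Its other probe-set fell by 0.67 in period II (adjusted p = 7.77e-04) and changed by -0.15 over the whole span (adjusted p = 0.33). The mean of both was higher by 0.20 (adjusted p = 0.045), so the whole-span increase of SERPIND1 depends on the probe-set. SERPINE2, protease nexin 1, was a low signal with medians of 6.28 at 1 dpn and 7.10 at 28 dpn, above background on 11 of 16 and on 15 of 15 arrays. It rose by 0.85 ± 0.22 in period II (adjusted p = 9.84e-04). It passed the filter through 28 dpn alone, so the filter favoured an increase and neither the size nor the p is support for one. SERPINB2, plasminogen activator inhibitor 2, had the widest range of stage means of the group, with medians of 6.00, 4.86, 3.84 and 4.46, but was above background on 3, 2, 0 and 0 arrays and was not tested.

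Among the 9 inter-alpha-trypsin inhibitor heavy chains and carriers, most fell in period I and rose in period II. In period I 6 fell and 1 rose, with a relative median of -0.69, in period II 6 rose and 2 fell, with a relative median of 0.44, and in period III 1 rose and 1 fell. The largest changes belonged to the hormone-carrying serpins. SERPINA6 encodes corticosteroid-binding globulin, the plasma carrier of cortisol.

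SERPINA6 had a lowest, median and highest signal of 12.50, 13.12 and 14.30 at 94 dpc, 10.05, 11.00 and 12.37 at 1 dpn, 10.81, 12.56 and 13.84 at 28 dpn and 12.48, 14.24 and 14.87 at 188 dpn. Every newborn was below every fetus, and the later stages overlapped their neighbours. It fell by 2.17 ± 0.21 in period I (adjusted p = 2.44e-10), rose by 1.31 ± 0.27 in period II (adjusted p = 7.49e-05) and rose by 1.68 ± 0.26 in period III (adjusted p = 5.63e-06), the largest increase of the 48 genes in that period. Animals of 1 age differed more for SERPINA6 than for most probe-sets, with SDs of 0.72 at 1 dpn and 0.85 at 28 dpn, above those of 95.2% and 99.4% of the probe-sets over background on all arrays.

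SERPINA7 encodes thyroxine-binding globulin. It had a lowest, median and highest signal of 13.45, 13.92 and 14.37 at 94 dpc, 11.02, 12.03 and 12.98 at 1 dpn, 12.51, 13.13 and 13.59 at 28 dpn and 12.09, 12.34 and 12.89 at 188 dpn. Fetuses were above all newborns and also above all pigs at 188 dpn. SERPINA7 fell by 1.84 ± 0.14 in period I (adjusted p = 3.43e-13), rose by 1.01 ± 0.14 in period II (adjusted p = 1.6e-07) and fell by 0.69 ± 0.10 in period III (adjusted p = 1.07e-06). The 2 hormone carriers thus moved the same way in periods I and II and in opposite directions in period III. TTR, transthyretin, a further carrier of thyroid hormone and of retinol, fell by 0.75 ± 0.10 in period I (adjusted p = 1.68e-07) and rose by 0.27 ± 0.11 in period II (adjusted p = 0.0314).

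The heavy chains of the inter-alpha-trypsin inhibitor bind hyaluronan and stabilise the extracellular matrix. ITIH2 had a lowest, median and highest signal of 15.19, 15.46 and 15.76 at 94 dpc, 13.87, 14.19 and 14.75 at 1 dpn and 14.41, 14.86 and 15.23 at 28 dpn, and ITIH1 of 15.07, 15.56 and 15.76, of 13.99, 14.37 and 15.00 and of 14.50, 14.90 and 15.23. For both genes every newborn was below every fetus. ITIH2 fell by 1.26 ± 0.08 and ITIH1 by 1.06 ± 0.09 in period I (adjusted p = 6.22e-15 and 4.88e-12), and they rose by 0.65 ± 0.09 and 0.46 ± 0.09 in period II (adjusted p = 1.67e-07 and 2.26e-05). The mean of both ITIH1 probe-sets changed by 0.28 in period II (adjusted p = 0.067). ITIH3 fell by 0.79 ± 0.12 in period I (adjusted p = 1.65e-06). It changed by 0.30 ± 0.14 in period II (adjusted p = 0.053), while its other 2 probe-sets fell by 1.14 and 1.31.

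ITIH4, an acute phase protein of this family that lies beside ITIH3, was different. It changed by 0.14 ± 0.09 in period I (adjusted p = 0.2) and fell by 0.47 ± 0.10 in period II (adjusted p = 1.42e-04), from a median of 15.53 at 1 dpn to 15.09 at 28 dpn. In period I ITIH4 rose by 0.58 after quantile normalization (adjusted p = 1.3e-07) and by 0.25 after centring on the median (adjusted p = 0.030). AHSG, fetuin A, an inhibitor of mineral precipitation, changed by -0.08 ± 0.10 in period I (adjusted p = 0.5) and fell by 0.41 ± 0.10 in period II (adjusted p = 7.89e-04), a call that was lost after centring on the median (-0.18, adjusted p = 0.125). After quantile normalization AHSG rose by 0.40 in period I (adjusted p = 1.12e-05), so the period I result of both genes depends on the scaling. HPX, hemopexin, which binds free haem, was the only gene of the group that rose in period I.

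HPX signals had a lowest, median and highest value of 13.30, 13.70 and 14.12 at 94 dpc, 14.47, 14.89 and 15.39 at 1 dpn, 14.92, 15.25 and 15.84 at 28 dpn and 14.97, 15.43 and 16.10 at 188 dpn. Every newborn was above every fetus. HPX rose by 1.27 ± 0.09 in period I (adjusted p = 2.62e-13) and by 0.30 ± 0.10 in period II (adjusted p = 0.00684).

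**Figure D3:**
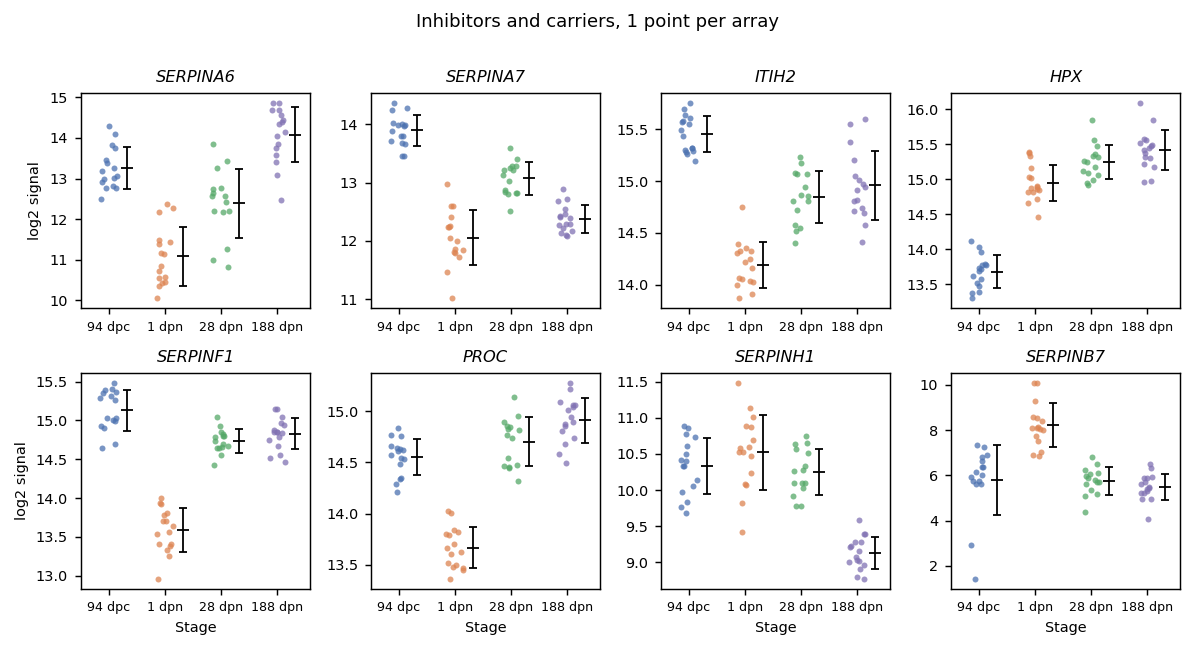
Each panel gives 1 inhibitor or carrier gene, each point 1 array (log2 signal on the y axis, stage on the x axis), and the bar beside the points the mean ± SD of the stage. SERPINA6, SERPINA7, ITIH2, SERPINF1 and PROC dip at 1 dpn, HPX climbs, SERPINH1 drops at 188 dpn, and SERPINB7 peaks at 1 dpn.

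Of the 4 other serpins that enter the secretory pathway 3 fell in period I, with a relative median of -0.79, 1 rose and 2 fell in period II, and SERPINH1 fell in period III. SERPINF1, pigment epithelium-derived factor, an inhibitor of vessel growth that has lost protease inhibition, had a lowest, median and highest signal of 14.65, 15.14 and 15.48 at 94 dpc, 12.96, 13.60 and 14.00 at 1 dpn and 14.43, 14.74 and 15.05 at 28 dpn. Newborns were below the fetuses and below the piglets at 28 dpn without overlap. SERPINF1 fell by 1.54 ± 0.10 in period I (adjusted p = 1.36e-14) and rose by 1.15 ± 0.09 in period II (adjusted p = 7.14e-13).

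SERPINI1, neuroserpin, which inhibits tissue plasminogen activator, fell in both periods in which it was tested. Its lowest, median and highest signals were 7.99, 8.51 and 8.86 at 94 dpc, 5.88, 7.43 and 7.96 at 1 dpn, 3.34, 6.20 and 7.17 at 28 dpn and 4.70, 5.73 and 6.05 at 188 dpn, and it was above background on 16, 15, 10 and 7 arrays. It fell by 1.33 ± 0.18 in period I and by 1.22 ± 0.27 in period II (adjusted p = 1.19e-07 and 1.69e-04), and the change from 94 dpc to 188 dpn was -2.92 ± 0.13 (adjusted p = 4.92e-20). No newborn reached the fetal range, and it passed the filter in period II through 1 dpn alone and over the whole span through 94 dpc alone. The filter thus favoured a decrease in period II and over the whole span, and neither the sizes nor the p there are support for one.

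SERPINH1 encodes the collagen chaperone of the endoplasmic reticulum. It was level over the first 3 stages, with medians of 10.37, 10.55 and 10.27, and had a lowest, median and highest signal of 8.77, 9.11 and 9.59 at 188 dpn, below every pig at 28 dpn. It fell by 1.12 ± 0.10 in period III (adjusted p = 3.01e-10). SERPINA1, alpha-1-antitrypsin, the inhibitor of neutrophil elastase, was at the top of the scale, with medians of 16.11, 15.58, 15.35 and 15.60. It fell by 0.43 ± 0.08 in period I and by 0.21 ± 0.08 in period II (adjusted p = 3.29e-05 and 0.0292), but the change in period II turned to 0.02 after centring on the median, and quantile normalization left -0.08 in period I.

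Among the 3 intracellular serpins SERPINB7 had its peak at 1 dpn. It had a lowest, median and highest signal of 1.44, 6.08 and 7.37 at 94 dpc, 6.88, 8.09 and 10.09 at 1 dpn, 4.38, 5.78 and 6.83 at 28 dpn and 4.06, 5.46 and 6.50 at 188 dpn. It was above background on 8, 16, 10 and 7 arrays of these stages, and newborns were above all piglets at 28 dpn. SERPINB7 rose by 2.41 ± 0.43 in period I (adjusted p = 1.61e-05) and fell by 2.46 ± 0.28 in period II (adjusted p = 2.93e-09). In both periods it passed the filter through 1 dpn alone, where it was high. The filter thus favoured a rise and then a fall, and neither the sizes nor the p are support for them.

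SERPINB1, an inhibitor of neutrophil proteases, fell by 0.49 ± 0.12 in period I, from a median of 10.15 to 9.65 (adjusted p = 6.69e-04), and rose by 0.79 ± 0.09 in period II (adjusted p = 6.08e-09), while the mean of its 3 probe-sets changed by 0.21 (adjusted p = 0.36). The genes used here for neutrophils and their precursors were lower in period I for 6 of 6 members, against 34.0% of all tested probe-sets. Their median log2 sum was 12.44 at 94 dpc and 10.68 at 1 dpn. At least ELANE, PRTN3 and S100A12 passed the filter through 94 dpc alone, so the filter favoured a decrease for them. The part of these cells in the fall of SERPINB1 was not tested. SERPINB11 was above background on 0, 1, 1 and 1 arrays and was not tested.

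**Figure D4:**
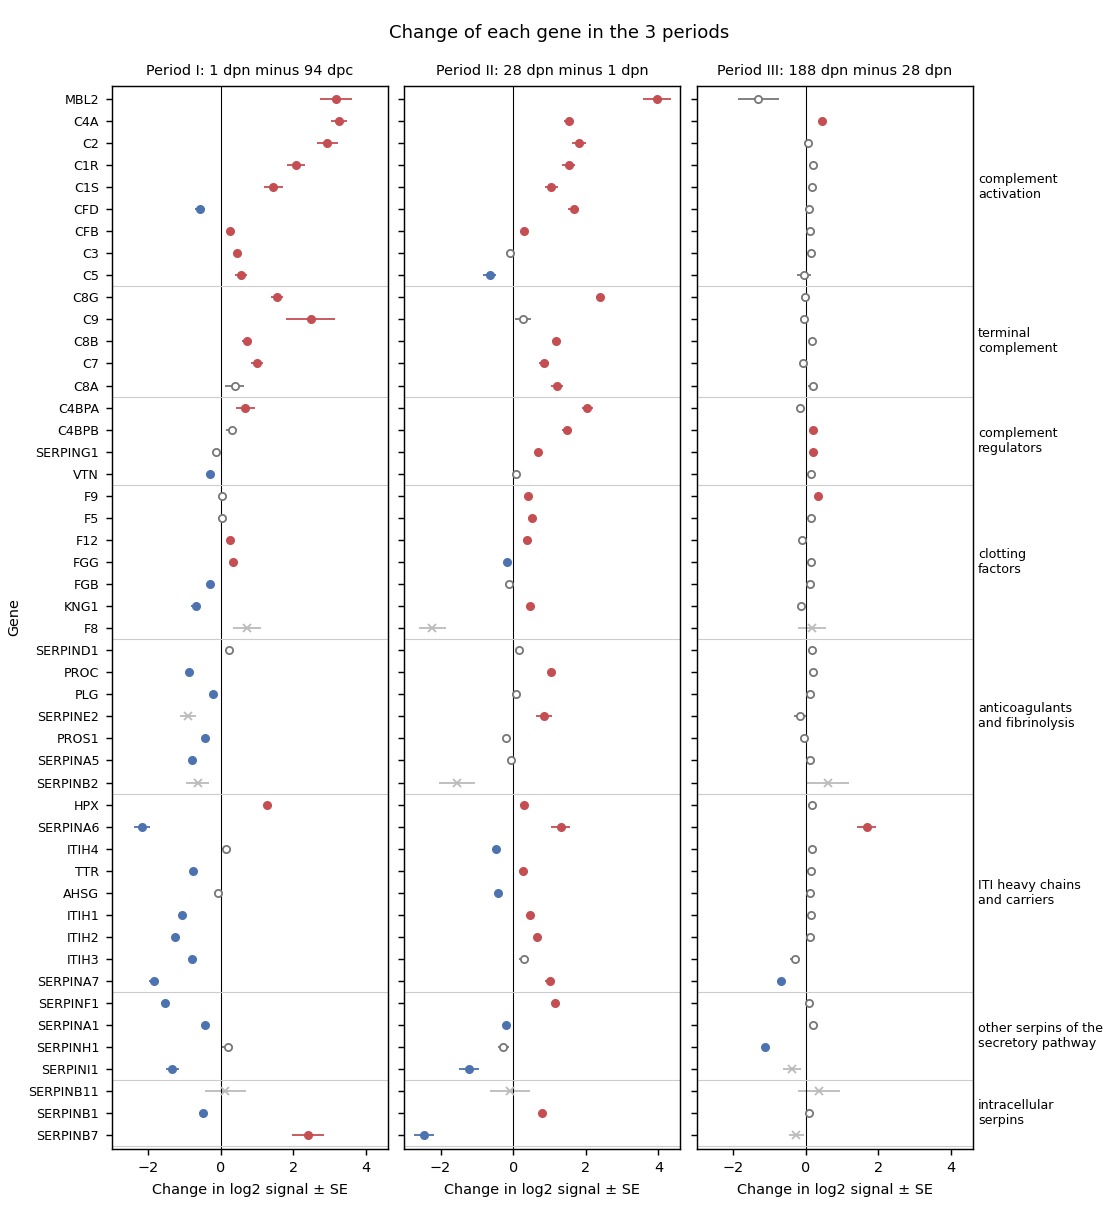
Each row is 1 of the 48 genes, ordered by role, and each panel 1 period, with the change in log2 signal ± SE on the x axis. Filled red points were called higher and filled blue points lower, open circles did not pass and grey crosses were not tested. The upper rows hold the complement genes, mostly red in periods I and II, and in period III 7 points are filled.

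Several of the 48 genes are neighbours in the current pig assembly, with at most 1 protein-coding gene between them, which the choice of the genes did not use. There are 11 such pairs, of which 9 had both members tested. Whether the members of a pair changed by the same amount was examined for periods I and II with a two-sided permutation test of the within-array difference (100000 resamples, smallest possible p 2e-05), with Benjamini-Hochberg adjustment over the 18 tests, and 14 differed at an adjusted p under 0.05. C2 rose by 2.66 more than its neighbour CFB in period I and by 1.52 more in period II (adjusted permutation p = 3.27e-05 for both). C1R rose by more than C1S by 0.62 and 0.47 (adjusted permutation p = 3.27e-05 for both).

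The pair C8A and C8B did not differ beyond the spread between arrays, with differences of -0.35 and 0.03 (adjusted permutation p = 0.2 and 0.84), and that of C4BPA and C4BPB differed in period II only, by 0.56 (adjusted permutation p = 0.00255, against 0.19 in period I). In period I the change of ITIH1 minus that of ITIH4 was -1.21, and that of ITIH3 minus that of ITIH4 was -0.93 (adjusted permutation p = 3.27e-05 for both). ITIH1 and ITIH3 fell in this period, while ITIH4 changed by 0.14. For SERPINA1 and SERPINA6, neighbours as well, the change of SERPINA1 minus that of SERPINA6 was 1.73 in period I and -1.51 in period II (adjusted permutation p = 3.27e-05 for both). The changes of FGB and FGG differed by -0.63 in period I and by 0.08 in period II (adjusted permutation p = 3.27e-05 and 0.0363). These tests compare the signals of different probe-sets, and those of SERPINA1, FGB, FGG, ITIH4 and CFB lay near the top of the scale, so an unequal change of signal need not be an unequal change of RNA.

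Among the genes with more than 1 probe-set, C7, CFB, F9 and KNG1 had probe-sets with opposite calls in period II. For CFB the second probe-set fell by 1.45 where the first rose by 0.29. Actin signals had a larger 3′ to 5′ difference at 28 dpn (median 3.70) than at 1 dpn (median 1.57), and the part of this in the unequal probe-sets was not tested. In period I no gene had opposite calls. The mean of all probe-sets of a gene gave 11 genes lower in period II in place of 7.

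**Figure D5:**
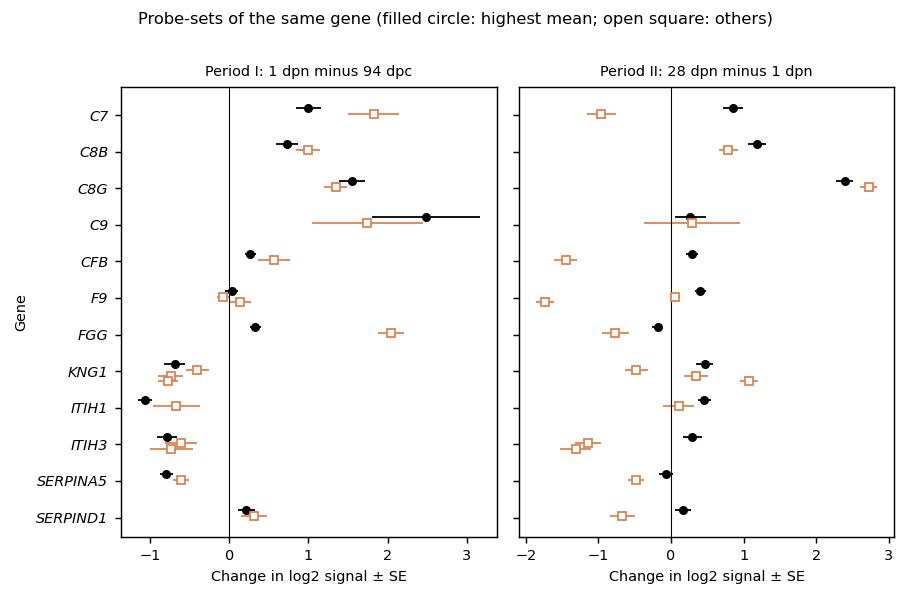
Each row is 1 of 12 genes with several probe-sets, with the change in log2 signal ± SE on the x axis for period I (left) and period II (right). The filled circle is the probe-set with the highest mean and open squares are the others: they lie on the same side of 0 in period I for all genes but F9, and in period II squares of C7, CFB, F9, KNG1, ITIH3 and SERPIND1 reach below 0 while the circle is above it.

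Other genes of the same pathways, none of them among the 48, followed different courses. Of 12 further complement genes on the array 10 were tested in period I, where none rose and CD55, a cell surface regulator that breaks up the C3 convertase, fell by 1.64 ± 0.19 (adjusted p = 5.11e-09), and the other 9 did not pass. In period II 7 of 9 rose, with the largest increases for CFP (properdin, 2.59 ± 0.17) and C1QC (a chain of C1q, 1.97 ± 0.12), with adjusted p of 2.92e-14 and 2.4e-15. In period III 5 of these 9 fell, with the largest decreases for CFP (1.07 ± 0.12) and ITGB2 (1.02 ± 0.14). CFP, C1QA, C1QC, VSIG4 and ITGB2 are made by macrophages and other leukocytes, and C1QA, C1QC and VSIG4 are also 3 of the 9 macrophage genes used here, so the courses of these lists are not independent. The part of these cells was not tested.

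Of 20 further coagulation and fibrinolysis genes 17 were tested in period I, where 7 rose and 6 fell. The largest decreases were those of HRG, histidine-rich glycoprotein, by 1.78 ± 0.15 (adjusted p = 1.29e-11), and F3, tissue factor, by 1.38 ± 0.41 (adjusted p = 0.00472). The largest increases were those of VKORC1L1, a vitamin K reductase, by 1.17 ± 0.16 (adjusted p = 1.12e-07), and ANXA5, annexin A5, by 1.01 ± 0.18 (adjusted p = 9.83e-06). HRG rose again by 0.98 ± 0.18 in period II (adjusted p = 1e-05) and by 0.40 ± 0.12 in period III (adjusted p = 0.00826), so that its lowest stage, like that of PROC and KNG1, was 1 dpn.

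Of 21 further plasma protein genes 19 were tested in period I, where 8 rose and 6 fell, with the largest increases for the acute phase proteins CRP (6.37 ± 0.38, adjusted p = 1.96e-15) and LRG1 (4.79 ± 0.23, adjusted p = 6.03e-18). The largest increase among the 48 genes in the same period was the 3.25 of C4A. CRP was above background on 7 of 16 fetal arrays and passed the filter through 1 dpn alone. The filter thus favoured an increase of CRP, and neither its size nor its p is support for one. The largest decreases were those of GC, the vitamin D carrier, by 0.57 ± 0.09, and AGT, angiotensinogen, by 0.56 ± 0.08 (adjusted p = 9.93e-07 and 5.59e-07).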

How the data were processed

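Liver RNA of 63 offspring was measured on 1 array each. Per the submitters' processing notes the authors used GCOS 1.1.1. The authors deposited signals on a log2 scale, and the files show that each array had been brought to a common mean of 500 after trimming 2% at each end. The study's methods name another summary (GCRMA) for its comparisons, which was not analysed here. Depth has no meaning for arrays, and the number of animals limits the precision.

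Probe-sets were named through the platform annotation, and all 48 genes matched a current gene record. Stages came from the labels. Each comparison was fitted with limma 3.58.1 in R 4.3.3 on the arrays of its 2 stages (lmFit and eBayes, two-sided, Benjamini-Hochberg adjustment over all tested probe-sets), and the scripts were tested on simulated data. A signal counted as above background when it was over the 95th percentile of the 23 untargeted controls on its array. Litter, sex and sib pair could not be modelled. Genes were given singly where they had the 2 largest called increases or decreases of their role group in a period, the widest range of stage means, or no overlap with a change of at least 2, and others were named after their values were seen, as were the test of neighbours and the fits without newborn array 7 or 11. The alternatives were other filters, quantile normalization, median centring, a joint fit, an intensity trend, array weights, a floor, probe-set means, a 3′ to 5′ covariate, left-out arrays, stricter thresholds and a Wilcoxon test. The members and lists were chosen with earlier results of these data known.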

Additional observations from a re-analysis of the deposited data

How the results depend on the processing

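Adding the 3′ to 5′ difference as a covariate left 0 genes higher and 0 lower in period I, and reversed C4BPA (-0.0042), F12 (-0.47), FGB (0.26), SERPINA5 (0.015), SERPINB1 (0.10), SERPINB7 (-1.68), VTN (0.52), ITIH1 (0.020), PLG (0.081), PROS1 (0.33), SERPINA1 (0.20) and TTR (0.65). Quantile normalization reversed FGB (0.19), VTN (0.14) and PLG (0.33) in period I and gave 3 higher and 7 lower in period III. Centring on the median reversed FGG (0.043) and SERPINA1 (0.018) in period II, and gave 4 lower there, 16 higher in period III and 6 lower over the whole span, where it changed the sign of 6 called genes and quantile normalization that of 2. The mean of a gene's probe-sets gave 11 lower in period II and turned C7 (-0.05), CFB (-0.58) and F9 (-0.43). Without a filter, or at an adjusted p under 0.01, 3 were higher in period III. Requiring a change of at least 1 left 10 higher and 6 lower in period I, 15 and 2 in period II, 1 and 1 in period III, and 14 and 3 over the whole span. The causes were not tested. Of the alternative values of the 56 changes that the rule for named genes selected, 700 kept their direction and their side of the threshold, 34 lost the threshold and 11 reversed. No analysis paired by litter was possible because the labels give no litter that ties animals of different stages. Signals near background (F8, SERPINB2, SERPINB11) and near the top of the scale limit what changes can be seen.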
